A study of Mus musculus with 8 samples.

Results

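The GATA2 sites that 3T3-L1 and C3H10T1/2 cells had in common numbered 537. GATA2 is a transcription factor, and its sites were mapped by chromatin immunoprecipitation followed by sequencing (ChIP-seq) in both mouse lines. Cells of 3T3-L1 are preadipocytes, already set on becoming fat cells. Cells of C3H10T1/2 are earlier, mesenchymal-type fibroblasts from which fat, bone, cartilage or muscle cells can be obtained. Both lines came from a public cell collection, carried no genetic change or treatment named in the labels, and were used at passages 4 to 6. For each line the labels name 2 ChIP libraries made with a GATA2 antibody and 2 input libraries without antibody, and DNA of separate immunoprecipitations was pooled before sequencing. What was analysed is 1 list of peak positions per line, 2445 peaks in 3T3-L1 and 1557 in C3H10T1/2, with no height or score and with unknown depth. A shared site is a 3T3-L1 peak that overlaps a C3H10T1/2 peak by at least 1 bp. The members were thus chosen by the measured peak positions and widths, which are therefore described with no test. Peaks in a stretch of chromosome 17 and a stretch of chromosome 11 were left out, which removed 11 rows of the 3T3-L1 list that would otherwise have counted as shared. The 537 sites met 534 rows of the C3H10T1/2 list, because 3 of those rows each covered a pair of 3T3-L1 peaks. Because each line gave a single list, p-values and intervals cover counting error over peaks only, and the variation among cultures is not known.

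GATA factors are zinc finger proteins that bind the letters GATA, most often with an A or T before them and an A or G after them. GATA2 keeps blood stem and progenitor cells in an immature state, and in preadipocytes it holds back the program driven by Pparg and the C/EBP factors. Like other GATA factors it acts largely through enhancers far from gene starts, where it works with cofactors of the FOG family and with other DNA-binding proteins. The identity of the lines could not be checked against marker genes, since the files hold no expression values. Whether the sites carry the GATA letters could be checked only where a site lay on a promoter, because sequence was at hand only for promoter windows.

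Of the 537 sites, 24 lay on a promoter window, taken as the 250 bases before to the 50 bases after an annotated gene start in RefSeq (GRCm38.p6, the mm10 assembly). Under the 3T3-L1 peak, 13 of these 24 windows held the GATA motif, which is GATAA or GATAG preceded by A or T, on either strand (54.2%, 95% exact Clopper-Pearson interval 32.8 to 74.4%). In the same stretches of all 32851 promoter windows the letters were found in 15.2% on average, and in 29.8% of the whole windows of 300 bases. The match lay close to the middle of the stretch that the lines shared, at a median distance of 16.5 bp (range 3 to 27 bp over 13 sites, taking the nearest match where a site had more than 1). All 14 matches were also inside the C3H10T1/2 peak, which follows from these distances and the lengths of the overlaps. Chosen after their values were seen, the following are the parts of 7 promoters under the 3T3-L1 peak with the GATA letters in capitals, shown because they place the letters within the shared sites. Each runs 5′ to 3′ on the strand of its gene, from RefSeq. Irf9 (plus strand, chr14:55603900-55604034) encodes the subunit of ISGF3 that binds DNA in interferon-treated cells, and its match ended just before the gene start. Wsb1 (minus strand, chr11:79254646-79254742) encodes a ubiquitin ligase subunit, and its stretch also held TGACGTCA, the cAMP response element. Arid1a (minus strand, chr4:133756819-133756908) encodes a subunit of the SWI/SNF chromatin remodelling complex. Hdac7 (minus strand, chr15:97814878-97815006) encodes a histone deacetylase. Stk40 (plus strand, chr4:126103754-126103980) encodes a serine/threonine kinase-like protein. Sumf2 (plus strand, chr5:129846804-129846967) encodes a paralogue of the sulfatase-modifying enzyme, and its stretch also held the AP-1 letters TGAGTCA. Ndufa9 (minus strand, chr6:126849168-126849264) encodes a subunit of respiratory complex I.
Irf9: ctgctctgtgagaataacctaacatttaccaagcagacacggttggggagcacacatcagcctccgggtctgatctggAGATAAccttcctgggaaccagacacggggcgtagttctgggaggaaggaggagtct
Wsb1: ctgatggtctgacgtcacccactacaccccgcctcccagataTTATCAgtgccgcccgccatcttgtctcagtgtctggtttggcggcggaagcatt
Arid1a: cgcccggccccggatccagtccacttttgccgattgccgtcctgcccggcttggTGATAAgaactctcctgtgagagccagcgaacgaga
Hdac7: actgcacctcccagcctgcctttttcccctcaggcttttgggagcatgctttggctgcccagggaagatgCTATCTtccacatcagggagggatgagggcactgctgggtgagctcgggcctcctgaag
Stk40: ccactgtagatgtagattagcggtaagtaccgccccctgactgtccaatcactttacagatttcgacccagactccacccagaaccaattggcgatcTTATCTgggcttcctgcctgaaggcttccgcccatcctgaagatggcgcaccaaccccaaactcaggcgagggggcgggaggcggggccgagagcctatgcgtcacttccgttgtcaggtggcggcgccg
Sumf2: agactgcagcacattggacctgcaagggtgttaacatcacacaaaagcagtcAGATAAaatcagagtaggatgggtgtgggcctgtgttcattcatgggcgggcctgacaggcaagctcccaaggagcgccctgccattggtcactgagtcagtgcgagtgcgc
Ndufa9: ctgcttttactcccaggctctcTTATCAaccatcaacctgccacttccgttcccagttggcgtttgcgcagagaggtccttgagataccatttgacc

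The other promoters with the GATA letters under a shared site were those of Fpgs, Mto1, Zfp763 and BC003965 and of the noncoding genes Gm42190 and Gm52101. Those without them were Chek2, Cstad, Cyb5b, Dab2, Got1, Psat1, Tcf3, Zc3h6, the divergent pair Tnfaip1 and Ift20, and the noncoding genes 2900052L18Rik and Gm52779. Only the part of a site on a promoter window was read, at Tcf3 77 bases of a 358 bp 3T3-L1 peak. Whether the unread parts of such sites hold the letters is not known. The letters GATAA with any base before them, which overlap the GATA motif but take in none of its GATAG forms, were present in 11 of the 24 (45.8%). All promoters held them in 12.7% of the same stretches and in 25.4% of whole windows. Got1, which encodes an aspartate aminotransferase, and the Tnfaip1 and Ift20 pair had GATAA but none of the longer forms. The stretch under the peak at Chek2, a checkpoint kinase gene (plus strand, chr5:110839813-110840012), is shown as a shared site without any of these letters.
Chek2: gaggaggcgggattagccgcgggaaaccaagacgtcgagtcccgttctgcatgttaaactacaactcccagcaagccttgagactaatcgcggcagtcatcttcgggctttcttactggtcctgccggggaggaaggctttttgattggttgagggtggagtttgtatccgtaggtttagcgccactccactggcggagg

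Sites of a single line on promoters held the GATA letters as well, and the shares were not told apart. In the 3T3-L1 list, leaving out peaks of dense blocks, 9 of 12 promoter peaks of that line alone held them (75%, interval 42.8 to 94.5%), a difference of -20.8 percentage points for shared minus one-line (adjusted p = 0.643 over 22 tests, Fisher's exact test, two-sided). With those blocks kept it was 9 of 15 (60%) and the difference was -5.83 points, while the letters GATAA alone gave 4.17 points (adjusted exact p = 1 for both). In the C3H10T1/2 list it was 14 of 25 shared peaks (56%, 34.9 to 75.6%) and 7 of 18 peaks of that line alone (38.9%, 17.3 to 64.3%; adjusted exact p = 0.716). The background in the same stretches of all promoters differed by class, which the tests did not allow for. It was 15.2% for shared and 12.9% for one-line peaks of 3T3-L1, and 19.7% and 12.5% for those of C3H10T1/2. With so few promoter peaks, even large differences could not have been detected. The nearest match lay at a median of 13.5 bp from the 3T3-L1 peak centre in both classes of that list, and at 12 and 27.5 bp in the C3H10T1/2 list. Other letters were searched on both strands in the 24 stretches. The E-box, CANNTG, was found in 7 (29.2%), against 43.9% of all promoters in the same stretches and 72.3% of whole windows. The TEAD letters GGAATG were found in 2 (8.33%, against 7.03% and 14.7%) and the RUNX letters TGTGGT in 1 (4.17%, against 8.03% and 16.8%). The AP-1 letters TGANTCA were found in 1 (4.17%, against 3.79% and 7.81%) and the cAMP response element in 1 (4.17%, against 0.962% and 1.79%). An E-box followed by GATAA at a spacing of 8 or 9 bases, the composite site known from blood cells, was found in 0 of 24. That allows a share of up to 14.2% by the exact interval. All promoters held it in 0.155% of the same stretches and in 0.359% of whole windows. None of these shares differed between shared and one-line peaks at an adjusted p under 0.05.

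Within pairs, the peak centres of the lines lay close together, a distance that the overlap rule itself bounds. Peak centres were a median of 20 bp apart (quartiles 8 and 35 bp, highest 209.5 bp), 460 of 537 pairs lay within 50 bp, and 14 were more than 100 bp apart. The overlap had a median of 149 bp (range 21 to 358 bp). In 440 pairs (81.9%) it took in at least 50% of both peaks, and in 257 pairs the 3T3-L1 peak lay wholly inside the C3H10T1/2 peak. The C3H10T1/2 peak was the wider in 364 pairs, the 3T3-L1 peak in 171, and 2 pairs had the same width, with medians of 205 and 174 bp. Across the 537 pairs log2 width in one line was only loosely related to that in the other (Pearson r = 0.319, Spearman rho = 0.333 across sites of the same 2 lists, given as a description).

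**Figure D1:**
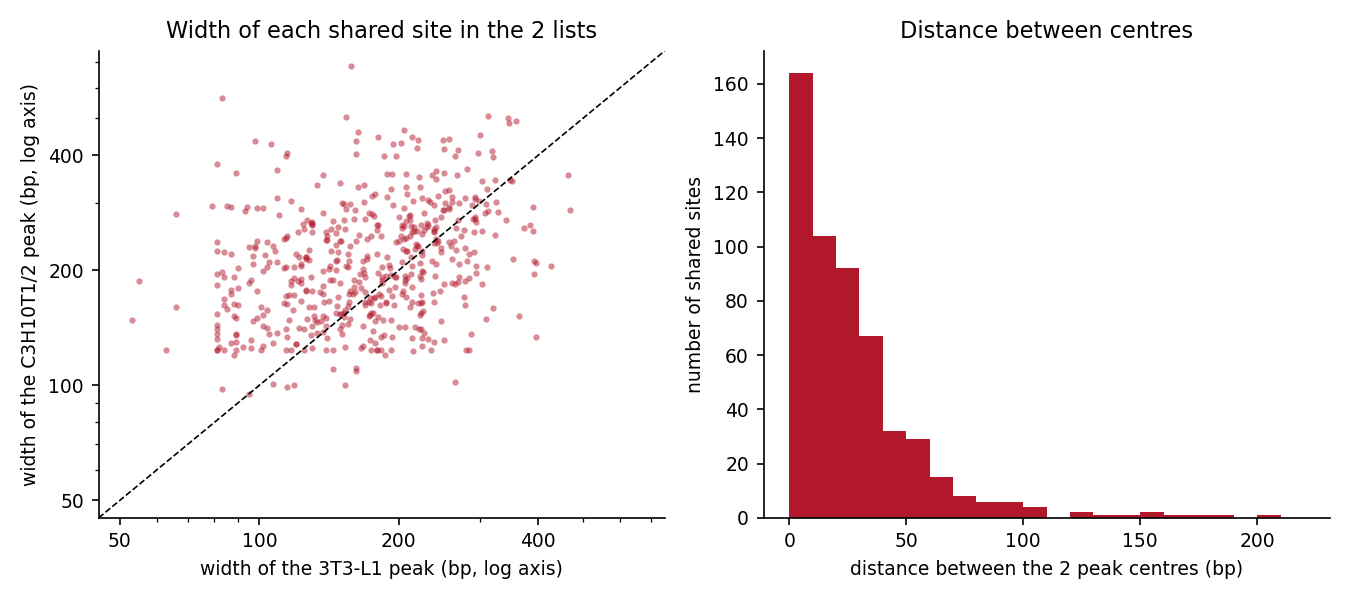
Left, the width of each of the 537 shared sites in the 3T3-L1 list (x, bp, log axis) against its width in the C3H10T1/2 list (y, bp, log axis), with a dashed line of equal width; right, a histogram of the distance between the 2 peak centres (bp). Most points lie above the line, as in 364 of 537 pairs, and 460 pairs have centres within 50 bp.

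Few sites stood near the threshold of 1 bp. The members with the shortest overlap lay inside Pdlim2 (21 bp) and Phlpp1 (31 bp). The closest pairs that failed were a 3T3-L1 peak at chr5:13591321-13591419 near Sema3a, 8 bp from a C3H10T1/2 peak, and one at chr15:75085779-75085828 near Ly6c2, with a gap of 34 bp. Of 1453 peaks of 3T3-L1 alone outside dense blocks, 4 were within 100 bp of a C3H10T1/2 peak and 10 within 1 kb. The longest overlaps were at Tcf3 (358 bp), a gene of helix-loop-helix E proteins, at Hgf (355 bp), the gene of hepatocyte growth factor, and at the zinc-sensing receptor gene Gpr39 (345 bp). They were followed by Tmem44 (344 bp), BC003965 (342 bp), Tmem178 (336 bp), the cationic amino acid transporter gene Slc7a1 (317 bp), Fbxl17 (311 bp), the talin gene Tln2 (299 bp) and the kinase gene Sgk1 (298 bp). The Tcf3 and BC003965 sites lay within 0.13 kb of a gene boundary, those of Slc7a1 and Tln2 inside the gene, and the others 11.6 to 174 kb from the nearest gene.

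The shared sites were compared with peaks of a single line for their place relative to protein-coding genes, a property that the overlap did not use. Peaks of 3 dense blocks of 3T3-L1, 444 in all, were left out of this comparison because neighbouring peaks of a block are not independent. A centre within 1 kb of a gene boundary was found for 40 of 537 shared sites (7.45%, interval 5.37 to 10%), against 27 of 1453 peaks of 3T3-L1 alone (1.86%, 1.23 to 2.69%), where all 3T3-L1 peaks together gave 3.37%. The difference of 5.59 percentage points passed the test (adjusted p = 2.39e-07, Fisher's exact test, two-sided). Gene starts, known with their strand for 17273 of 21627 genes and for none on chromosome 18, gave the same direction. Within 1 kb of a start were 30 of 519 shared sites (5.78%, 3.93 to 8.15%) and 21 of 1409 peaks of 3T3-L1 alone (1.49%, 0.925 to 2.27%; adjusted exact p = 1.39e-05; 2.65% over both). In the C3H10T1/2 list the differences were smaller and neither passed at 0.05. There 40 of 534 shared peaks (7.49%) and 45 of 998 peaks of that line alone (4.51%) lay within 1 kb of a boundary (adjusted exact p = 0.0827; 5.55% over both). Within 1 kb of a start it was 29 of 516 (5.62%) and 27 of 964 (2.80%; adjusted exact p = 0.0524; 3.78% over both). Among shared sites, widths were similar near boundaries and away from them, with medians of 168.5 and 174 bp in 3T3-L1 and 222 and 205 bp in C3H10T1/2. The compared classes did differ in width. Shared peaks had a median of 174 bp in 3T3-L1, against 136 bp for peaks of that line alone. In C3H10T1/2 the medians were 205 and 174 bp.

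**Figure D2:**
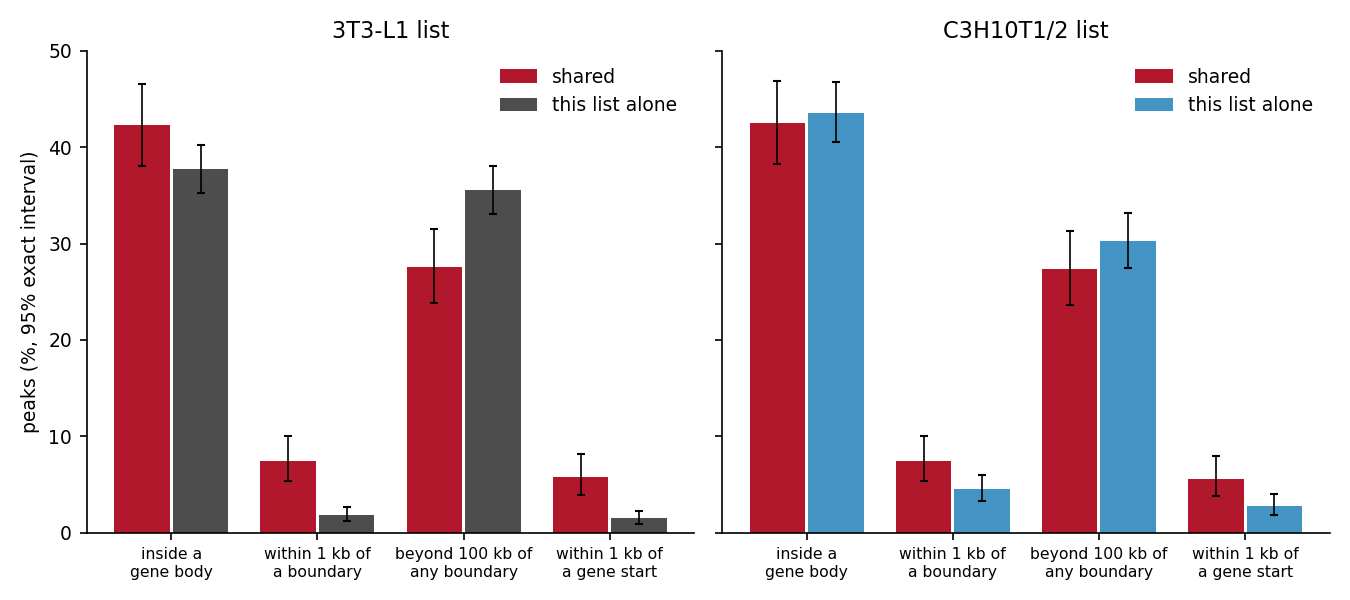
Share of peaks (%) in 4 places relative to protein-coding genes, for shared peaks (red) and peaks of the named list alone (grey or blue), with 95% exact intervals as bars; left the 3T3-L1 list, right the C3H10T1/2 list. Within 1 kb of a boundary the shared bar stands at 7.45% against 1.86% in 3T3-L1 and at 7.49% against 4.51% in C3H10T1/2.

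Most shared sites were far from any gene boundary. The median distance was 38.4 kb, against 56.2 kb for peaks of 3T3-L1 alone and 47.7 kb for those of C3H10T1/2 alone. Beyond 100 kb of any boundary lay 148 shared sites (27.6%, 23.8 to 31.5%) and 516 peaks of 3T3-L1 alone (35.5%), with 33.4% over both (adjusted exact p = 0.00651). That difference did not pass with the dense blocks kept (adjusted exact p = 1), with every annotated gene in place of coding genes (0.906) or among the narrower peaks (0.703). In C3H10T1/2 the shares were 27.3% and 30.3% (29.2% over both; adjusted exact p = 0.584). Gene bodies held 227 shared sites (42.3%, 38.1 to 46.6%), 37.7% of peaks of 3T3-L1 alone (35.2 to 40.3%; adjusted exact p = 0.256) and, in the C3H10T1/2 list, 42.5% of shared and 43.6% of other peaks (adjusted exact p = 1), with 38.9% and 43.2% over each list. The host genes of shared sites had a median length of 123 kb. For peaks of 3T3-L1 alone it was 197 kb and for those of C3H10T1/2 alone 171 kb, while all coding genes had a median of 17.3 kb. Hosts were counted once per site, which gives long genes more weight, and all coding genes once each.

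**Figure D3:**
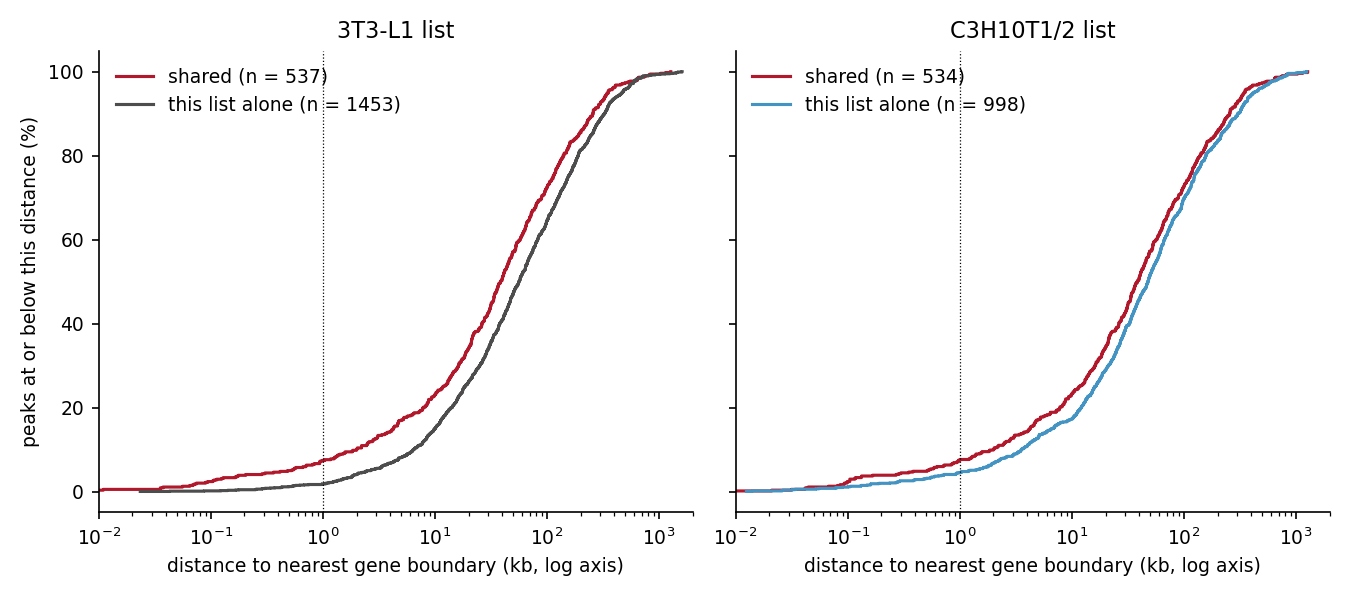
Cumulative share of peaks (%) by distance to the nearest boundary of a protein-coding gene (kb, log axis), for shared peaks (red) and peaks of the named list alone, with a dotted line at 1 kb. The red curve lies above the grey one in 3T3-L1, with medians of 38.4 and 56.2 kb, and nearer to the blue one in C3H10T1/2, whose one-line median is 47.7 kb.

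The 227 sites inside genes fell in 211 host genes. The strand was known for 167 of them, and 88 of these lay in the first 50% of the gene, with 43 in the first 25% and 32 in the last 25%. The remaining 310 sites named 265 nearest genes, from 67 sites within 10 kb and 129 between 10 and 100 kb to 114 beyond 100 kb. Where the strand was known, 139 of these sites lay upstream of the gene and 103 downstream. Exon, intron and UTR positions are not in the gene table used. Taking the host gene, or the nearest gene where a site lay outside genes, 460 of 21627 coding genes had a shared site (2.13%), and 393 (1.82%) had one if the overlap was to be at least 50% of both peaks. Of the 460, 400 had 1 site, 44 had 2, 14 had 3 and 2 had 4. A long gene, or one beside a gene desert, collects more sites under this rule.

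The genes with 4 sites were Tbl1xr1, which encodes a component of the NCoR and SMRT corepressor complex, and Rfpl4b. One Tbl1xr1 site lay inside the gene, 91.4 kb from its start, and the others were 113 to 259 kb upstream. The Rfpl4b sites were spread over the 31.7 to 810 kb beyond the gene's end, beside 6 peaks of 3T3-L1 alone and 3 of C3H10T1/2 alone that also had Rfpl4b as nearest gene. Among genes with 3 sites, Pde4d, a cAMP phosphodiesterase gene, held all of them in its body, as did Macrod2, a gene of 1998 kb. Cdk14, a cyclin-dependent kinase gene, had 2 in its body and 1 at 1.27 kb upstream. Adamts16, a secreted protease gene, had 2 in its body and 1 at 410 kb beyond it. The 3 sites of Mbnl1, an RNA splicing regulator gene, all lay upstream, at 45.5 to 101 kb from the gene. Those of Snx18 lay 36.3 to 96.1 kb beyond its end. The sites at Gm38821 lay 36.4 to 60.4 kb from the gene, and those at Caap1, of which a pair met a single C3H10T1/2 peak, 339 to 406 kb from it. The other 6 genes with 3 sites, Adamts5, Cdkn2b, Cxcl12, Cxcl15, Ebf1 and Gas1, belong to the gene groups described next.

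**Figure D4:**
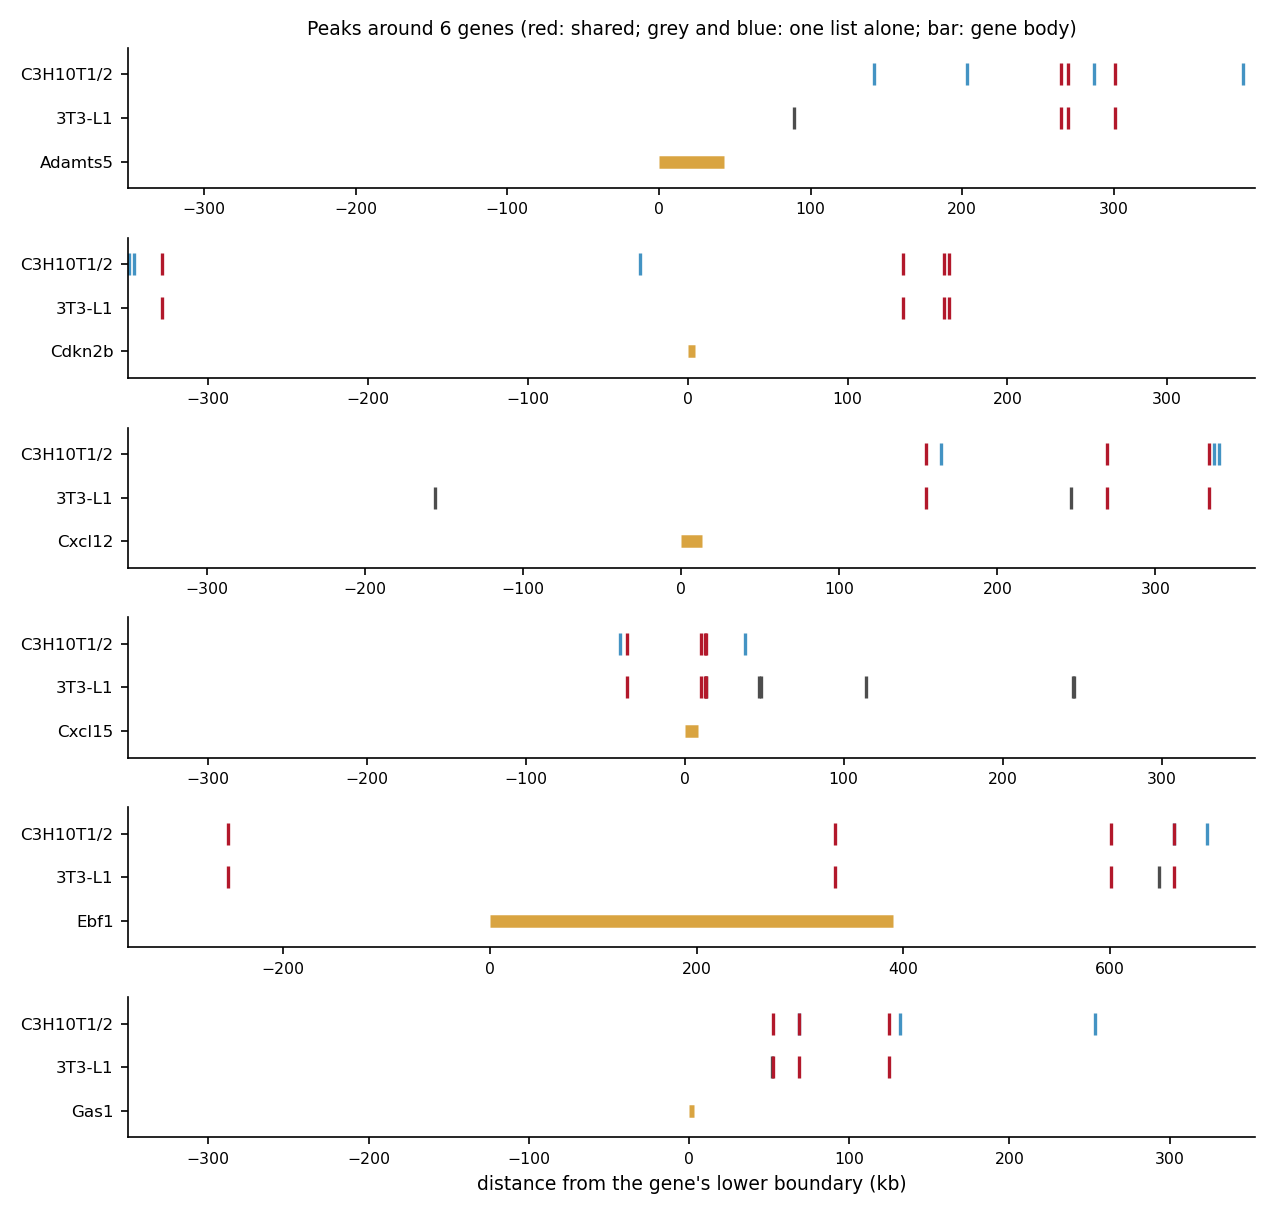
Peak centres around the 6 genes of the gene groups with 3 shared sites, as distance from the gene's lower boundary (kb), with the gene body as a bar, 3T3-L1 peaks in the middle row and C3H10T1/2 peaks in the upper row; red marks are shared, grey and blue ones are of one list alone. The 3 shared marks of each of Adamts5, Cdkn2b, Cxcl12 and Gas1 stand at higher coordinates than the gene, and that inside Ebf1 stands at 85.5% of its length, while red marks at negative distances have another nearest gene.

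Gene groups are given as counts of genes with a shared site, to be read against the 2.13% of all coding genes and their median distance of 1735 kb to the nearest shared site. The groups hold longer genes than average in many cases, which was not allowed for. Growth factors and their receptors had a shared site at 7 of 35 genes (20%), with a median gene length of 56.5 kb and a median distance of 989 kb. That was the highest share of the 22 groups when counted by host or nearest gene. With boundaries within 100 kb it was 5 of 35 (14.3%, against 5.22% of all genes), below 5 other groups. Hgf had a site 11.6 kb upstream of its start and another 80.2 kb beyond its end. Igf1, the insulin-like growth factor gene, had one 37 kb beyond its end, and Pdgfc, a platelet-derived growth factor gene, one 154 kb beyond. Irs1, which encodes the main adaptor of insulin and IGF receptors in preadipocytes, had sites at 191 and 228 kb beyond its end. Among receptors, Egfr held a site in its body, 102 kb from its start, and the growth hormone receptor gene Ghr had one 142 kb upstream.

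Extracellular matrix genes had shared sites at 8 of 51 genes (15.7%), with a median length of 54.4 kb and a median distance of 783 kb. Dcn, which encodes the collagen-binding proteoglycan decorin, had sites at 12.6 and 52.6 kb from its lower coordinate. Lama4, a laminin chain gene of vessel and fat basement membranes, held 2 sites in its body. The collagen genes Col8a1 and Col14a1 each held 1 in the body, and Col12a1 had 1 at 120 kb. Lox, the gene of the enzyme that crosslinks collagen and elastin, had a site 31 kb away, and Postn, which encodes the matricellular protein periostin, had one 56.1 kb beyond its end. Adamts5, which encodes an enzyme that cleaves the proteoglycan aggrecan, had 3 sites at 222, 227 and 258 kb from it and within 36.2 kb of each other. Another 7 peaks of C3H10T1/2 alone and 2 of 3T3-L1 alone had Adamts5 as nearest gene. Adhesion and actin genes followed with 3 of 38 (7.89%; median distance 1562 kb). Itga11, a collagen receptor gene, had a site 66.4 kb upstream, Myh9, the gene of nonmuscle myosin heavy chain IIA, had 2 in its body that met a single C3H10T1/2 peak, and the cadherin gene Cdh11 had one 453 kb away.

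Wnt signalling genes had shared sites at 5 of 38 (13.2%; median distance 841 kb, median length 37.6 kb). The receptor gene Lgr4, whose product binds R-spondins, held 2 sites in its body, at 28.7% and 80.9% of its length from the start, and no peak of a single line. The antagonist gene Dkk3 held 1 in its body. Axin2, a feedback inhibitor and Wnt target, had one 61.1 kb beyond its end, the nuclear effector gene Tcf7l2 one 88.8 kb beyond its end, and the receptor gene Fzd1 one 205 kb beyond. Notch and Hedgehog genes had sites at 2 of 23 (8.70%; median distance 1433 kb). The receptor gene Notch1 held one in its body, 3.66 kb from its start. Gas1, which encodes a Hedgehog coreceptor, had 3 upstream sites at 49.2, 65.5 and 122 kb. BMP and TGF-beta genes had sites at 2 of 38 (5.26%; median distance 1596 kb), and boundaries within 100 kb of a shared site were found for 1 of 38 (2.63%, against 5.22% of all genes), a gene other than the pair named next. The ligand gene Bmp4 had a pair of 3T3-L1 peaks 139 kb upstream of its start, under a single C3H10T1/2 peak, and Ltbp1, whose product holds latent TGF-beta in the matrix, held 1 site in its body.

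Cytokine and chemokine genes had shared sites at 3 of 29 (10.3%; median distance 704 kb). Cxcl12, whose product guides blood stem cells and is made by stromal cells, had 3 sites at 142, 257 and 321 kb beyond its end. On chromosome 5, Cxcl5 had a site 0.942 kb from its lower coordinate, and Cxcl15 had 3 sites at 1.58, 4.26 and 4.77 kb beyond its end. These 4 sites lay within 49.6 kb of each other and formed the only group of 4 among runs of shared sites with gaps of at most 50 kb. Boundaries within 100 kb of a shared site were found for 8 of the 29 genes (27.6%, against 5.22% of all genes), of which 7 were Cxcl1, Cxcl2, Cxcl3, Cxcl5, Cxcl15, Ppbp and Pf4, which neighbour each other. Of 17 interferon response genes matched, Irf9 alone had a site (5.88%; median distance 1818 kb), centred 4 bp from its start. Among p53 and cell cycle genes it was 3 of 22 (13.6%; median distance 1161 kb). Chek2 had its site at the start, and the antiproliferative gene Btg1 had one 89.4 kb beyond its end. Cdkn2b, which encodes the CDK4 and CDK6 inhibitor p15, had 3 sites at 130, 156 and 159 kb upstream. No peak of a single line had it as nearest gene. A peak of C3H10T1/2 alone nevertheless lay closer than these sites, 30 kb below its lower boundary, and was counted for the neighbouring gene Cdkn2a.

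Transcription factor genes were counted by family. Among GATA factors and cofactors it was 2 of 13 (15.4%; median distance 1704 kb). Trps1, which encodes a GATA-type repressor, had 1 site in its body and 1 at 299 kb, beside 4 peaks of each single line, and Gata6 had one 245 kb away. Gata2 itself had none, and the nearest shared site lay 718 kb from it. Nuclear receptors had 3 of 27 (11.1%; median distance 1323 kb). The retinoic acid receptor genes Rara and Rarb each held a site in the body, and Nr2f1, an orphan receptor gene, had one 737 kb upstream. AP-1 and immediate early genes had 2 of 20 (10%; median distance 1373 kb), with sites 48.6 kb upstream of Jun and 16.2 kb upstream of Klf6. The helix-loop-helix group had 2 of 21 (9.52%; median distance 1786 kb). Tcf3 had its site 0.011 kb upstream of its outer boundary, and Hes1, a repressor induced by Notch, had one 0.663 kb and another 119 kb from the gene. Blood and endothelial GATA2 targets had 2 of 26 (7.69%; median distance 931 kb). Pecam1, an endothelial adhesion gene, held a site in its body, as did the blood stem cell factor gene Runx1. Mesenchymal precursor genes had 2 of 28 (7.14%; median distance 1236 kb), among them Thy1 at 97.8 kb.

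The remaining groups had a shared site at 1 gene or none. Adipogenesis genes had a shared site at 1 of 30 (3.33%; median distance 1800 kb), which was Ebf1, an early B cell and fat cell factor. Its 3 sites lay at 85.5% of the gene's length and at 211 and 271 kb beyond its end. Pparg and Cebpa had none, with the nearest shared sites 1833 and 16908 kb away. Peaks of 3T3-L1 alone had Pparg (3 peaks) and Cebpa (1 peak) as host or nearest gene, and no peak of C3H10T1/2 alone did. Both genes were picked by name, and the share over all genes is not given. More peaks were of 3T3-L1 alone than of C3H10T1/2 alone (1453 and 998 outside dense blocks). Cebpb, Cebpd, Fabp4, Adipoq and Plin1 had no peak of either line alone. Lpl had 1 of 3T3-L1 alone, and Lpin1 had 1 of each line. No difference between the lines at such genes was tested. Bone and cartilage genes had 1 of 24 (4.17%; median distance 1249 kb), again Runx1, and Runx2 had its nearest at 1244 kb. Forkhead genes had 1 of 23 (4.35%, median distance 1578 kb), Foxl1 at 33.6 kb. A boundary within 100 kb of a shared site was found for 3 of 23 (13.0%, against 5.22% of all genes). These were Foxc2, Foxf1 and Foxl1, which neighbour each other on chromosome 8. They lay 45.4, 76.1 and 33.6 kb from the same shared site, so that share rests on a single site. The YAP and TEAD pathway had 1 of 19 (5.26%; median distance 1320 kb), Vgll3, which had its site 72.2 kb upstream. Muscle genes had 0 of 15 (median distance 1984 kb). As controls, cytosolic ribosomal protein genes had 0 of 25 with a median length of 3.67 kb and a median distance of 1340 kb. Neuronal synapse genes had 0 of 25 with a median length of 114 kb. At 2.13% of all genes, a count of 0 in lists of this size is near the background.

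**Figure D5:**
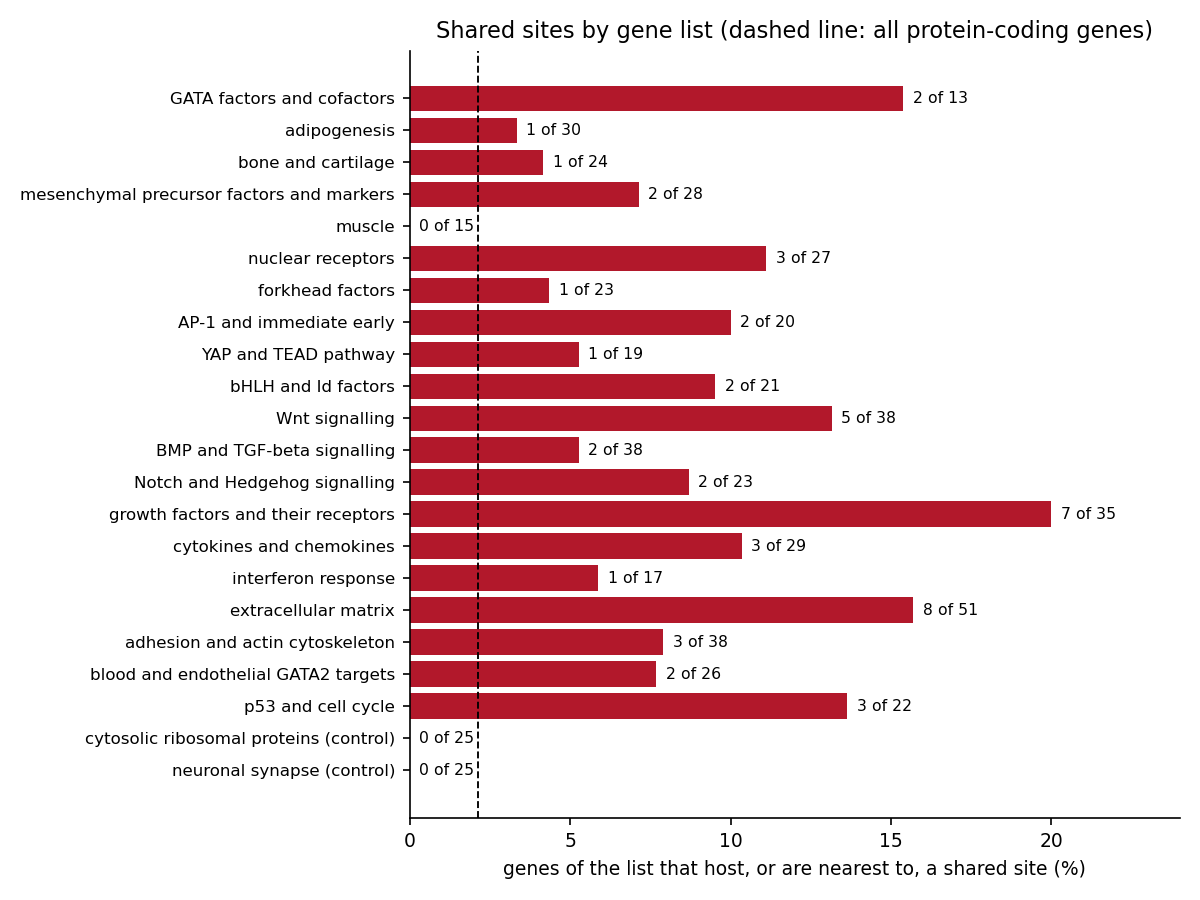
Share (%) of the genes of each of 22 groups that hosted, or were nearest to, a shared site, with the counts beside the bars and a dashed line at the 2.13% of all protein-coding genes. Growth factors and their receptors reach 20%, adipogenesis genes 3.33%, and muscle, ribosomal protein and synapse genes 0.

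Several sites far from coding genes lay in noncoding genes. Of the 310 sites outside coding genes, 55 were inside another annotated gene and 255 were in none. The 3 sites upstream of Cdkn2b were inside the noncoding gene Gm12610, the Caap1 sites inside Gm12648 and the Jun site inside Junos, a noncoding gene named for its place opposite Jun. The site 0.712 kb beyond the end of Hoxa3 lay inside Hoxaas2. MicroRNA hairpins within 10 kb were found for 6 sites, the nearest being Mir3075 at 1.18 kb from the site inside Zmiz1, Mir3966 at 3.37 kb from a site of Dcn and Mir7-1 at 4.62 kb from a site near 2210016F16Rik. The most distal sites had Flrt2 (1271 kb), Epha7 (1146 kb), Lrrc4c (1031 kb), Ctnna3 (832 kb) and Rfpl4b (810 kb) as nearest genes. Gsdmc (755 kb), Nr2f1 (737 kb), N6amt1 (659 kb), Efnb2 (643 kb) and Btbd3 (549 kb) came after them.

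Shared sites were spread over all 20 chromosomes of both lists and were mostly solitary. Runs with gaps of at most 50 kb between centres numbered 31 with 2 sites, 3 with 3 sites (at Adamts5, Mbnl1 and Cdkn2b) and 1 with 4 sites, and 462 sites stood alone. A peak of 3T3-L1 alone lay within 50 kb of 97 shared sites (18.1%) and one of C3H10T1/2 alone within 50 kb of 109 (20.3%), while 321 (59.8%) had no other peak of either list in that range. With the 444 peaks of dense blocks left out, the shared part of the 3T3-L1 list ranged from 22.4% on chromosome 19 to 40% on chromosome 4 among autosomes. On the X chromosome it was 7 of 60 peaks (11.7%, 4.82 to 22.6%), and those 7 sites made up 46.7% of the 15 C3H10T1/2 peaks there (21.3 to 73.4%). In the C3H10T1/2 list the autosomes ranged from 20.3% on chromosome 12 to 48.8% on chromosome 17. These shares were not tested against each other.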

How the data were processed

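Peak positions in 2 deposited lists, 1 per line, were analysed. The authors deposited chromosome, start and end alone, with no other measured unit. Per the submitters' processing notes the software included CASAVA 1.8, SAMtools, Bowtie2, MACS2 and bedtools, with mm10 as the build, and their roles and settings are not stated. How libraries were combined, how input was used and which threshold made a peak are not given in the sources used here. Caller settings decide how many peaks are listed and how wide they are. Positions are printed counted from 1.

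Overlaps, distances from peak centres and motif matches were computed with Python 3.11.15, pandas 2.3.3 and numpy 2.4.6, and two-sided Fisher's exact tests and exact intervals with scipy 1.17.1. The code was tested on simulated data. Adjustment followed Benjamini and Hochberg over 22 tests, 11 properties in each list, and called under 0.05. Genes were the 21627 protein-coding genes of the RefSeq table on chromosomes 1 to 19 and X. Dense blocks were runs of at least 8 peaks with gaps of at most 20000 bp. Motifs were searched on both strands in the part of a promoter window under a peak, if at least 20 bases long, since no genome sequence was used here.

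The sites and the 22 gene lists were chosen with earlier results of these data known. All symbols but 1 (Mx1) matched the gene table. Named genes are those of the lists with a shared site, those with at least 3 sites, the 10 longest overlaps, the 10 most distal sites and the pairs nearest the threshold, and a few of these genes are not reported here. Other settings were a stricter overlap, width classes, blocks kept, all annotated genes, other windows and other motif letters.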

Additional observations from a re-analysis of the deposited data

How the results depend on the processing

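The number of shared sites was 537. It stayed within 1.5 times of that with an overlap of 50% of both peaks, with centres within 1 kb or within 100 bp, with the chromosome 11 and 17 stretches kept and with C3H10T1/2 rows counted, and it was 247 when peaks narrower than the median of their list were dropped. In 3T3-L1 the higher shares of shared sites near boundaries and near starts passed the test under each alternative run. The lower share of distal shared sites did not pass with dense blocks kept (-1.64 percentage points), with all annotated genes (-1.22 points) or among peaks below the median width (-5.22 points, a setting chosen after seeing the data). In C3H10T1/2 the boundary difference passed with the overlap of 50% (3.69 points, adjusted Fisher's exact p = 0.0347) and the start difference passed without peaks narrower than the median (4.45 points, adjusted exact p = 0.0218), and neither passed otherwise. The cause of these changes was not tested. No motif difference passed under any setting run, among them the whole promoter window, which was also added after seeing the data. Counts of genes moved by more than 1.5 times in 7 of 22 groups with a window of 100 kb around boundaries (down for GATA and BMP genes, up for cytokines, nuclear receptors, forkhead, AP-1 and mesenchymal genes) and, downward, in 5 of 22 with the overlap of 50%. The share over all coding genes moved as well, from 2.13% to 5.22% with the 100 kb window and to 1.82% with the overlap of 50%. A higher count in a group therefore does not by itself mean a higher share relative to all genes. Leaving out a library was not possible, as each line has 1 list. No paired analysis was possible because the lists carry no replicate numbers. Depth is unknown, so which weak sites of one line were missed in the other cannot be told.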

Other observations

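Further host and nearest genes of shared sites are given here, chosen after their values were seen. Wls, whose product carries Wnt proteins to the cell surface, held a site 45.7 kb from its start, and Tle1, a corepressor gene of the Groucho family, one 5.63 kb from its start. Ski, which encodes a repressor of TGF-beta signalling, held one 48.8 kb from its start, and Bmper and Crim1, genes of BMP regulators, had sites 160 kb upstream and inside the gene. Jak1, the kinase gene of interferon and cytokine receptors, held a site 17.7 kb from its start, and the cytokine gene Il15 and the chemokine gene Cxcl9 each held one.

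Genes of fat cell physiology with a shared site included Pde3b, the phosphodiesterase gene through which insulin lowers cAMP, and Medag, a gene of adipogenesis, both with the site in the body. The clock gene Per2 held a site, and Sik1, a kinase gene induced by cAMP, had one 0.166 kb beyond its higher coordinate. Of 4 genes of developmental regulators picked here, Osr1 had its site at 231 kb, Irx1 at 288 kb, Cited2 at 312 kb and Pax1 at 4.09 kb. Matrix genes outside the group counted in the comparison also hosted sites, namely Efemp1, Fstl1, Ccdc80, Svep1, Col23a1 and Col28a1. Fstl1 had a second site 44.5 kb upstream. These genes were picked by name, so their number carries no weight.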
